A study of Homo sapiens with 6 samples.

Results

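The 41 genes described here encode the MiT/TFE transcription factors and the lysosomal and autophagy proteins whose genes these factors are known to control. They were chosen by name, from what is known of the pathway, but with earlier results of these data known. All 41 were found among the 17448 genes of the deposited table and passed the filter on low counts. RNA-seq was performed on HCC2814 cells, an established human lung squamous cell carcinoma (LUSC) line, and covered 3 samples each of WT and MLST8-KO cells from separate experiments. WT cells carried a non-targeting CRISPR guide and MLST8-KO cells a guide against MLST8, a subunit that mTORC2 needs to hold together and that mTORC1 also contains. Both groups were grown in DMEM with 10% serum, received no drug and were put under antibiotic selection 48 to 72 h after the guide, so each sample is a selected pool of cells. The labels do not say whether the 3 samples of a group carried the same guide.

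TFEB, TFE3 and MITF are basic helix-loop-helix factors that bind E-boxes, short palindromic DNA motifs near the start of lysosomal genes. When mTORC1 is active at the lysosome, it phosphorylates TFEB and TFE3 and keeps them in the cytoplasm, and when it is inactive they enter the nucleus. Lysosomes hold acid hydrolases, are acidified by the V-ATPase proton pump, and receive cargo from autophagosomes, whose membrane carries ATG8 proteins such as LC3B. RNA-seq reads transcript levels and not where TFEB is in the cell or how much of it is phosphorylated.

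The E-box CACGTG was searched on both strands in RefSeq promoter windows (GRCh38.p14, from 250 bases before to 50 bases after a start site), and its longer form TCACGTG, which contains it, was counted as well. Of the 41 genes, 29 had a window in the RefSeq table, and 9 of these held at least 1 E-box: LAMP1, MCOLN1, CTSA, ATP6V0D1, CTSD, GAA, NEU1, ATG14 and RRAGB. Each of the 9 also held the longer form. Among all 27305 genes with a window, 8.77% held CACGTG and 4.49% held TCACGTG. The promoters below show how the motif is laid out in genes that rose in MLST8-KO cells (LAMP1 and MCOLN1) and in genes that did not pass the test (GAA and NEU1). Capitals mark the E-box, and each sequence reads from 5′ to 3′ on the strand of its gene: LAMP1 at chr13:113297035-113297114 (plus strand), MCOLN1 at chr19:7522544-7522623 (plus), GAA at chr17:80101476-80101555 (plus) and NEU1 at chr6:31862907-31862986 (minus).
LAMP1: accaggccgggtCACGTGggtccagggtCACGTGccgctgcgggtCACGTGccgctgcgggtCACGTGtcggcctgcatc
MCOLN1: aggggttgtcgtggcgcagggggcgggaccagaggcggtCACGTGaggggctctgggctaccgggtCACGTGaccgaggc
GAA: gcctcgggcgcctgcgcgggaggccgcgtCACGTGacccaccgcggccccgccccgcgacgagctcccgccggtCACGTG
NEU1: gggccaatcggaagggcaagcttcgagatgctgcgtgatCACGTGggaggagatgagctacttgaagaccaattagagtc

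LAMP1 had the densest set, with 6 E-boxes starting at positions -192, -176, -159, -142, -28 and -1 from its start site, of which the first 4 are shown. MCOLN1 had 2, at -41 and -14. CTSA, which also rose, had 2, at -42 and -25, and ATP6V0D1 had 1, at -59. The single sites of CTSA and ATP6V0D1 are given with 10 bases on either side, beside that of CTSD, whose adjusted p lay just above the threshold: chr20:45891283-45891308 and chr20:45891300-45891325 (plus strand) for CTSA, chr16:67481201-67481226 (minus) for ATP6V0D1 and chr11:1763959-1763984 (minus) for CTSD.
CTSA, position -42: ggaagactgtCACGTGgcgccggagt
CTSA, position -25: cgccggagttCACGTGactcgtacac
ATP6V0D1, position -59: cccttatggtCACGTGaggcgcttgc
CTSD, position -47: cggccgcgccCACGTGaccggtccgg

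Windows of TPP1, GPNMB, MAP1LC3B and GABARAPL1, all of which changed in MLST8-KO cells, did not hold these letters. A match is a stretch of letters and not a measured binding site.

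Several checks of the whole series bear on these genes. Estimated counts summed to between 14381673 and 15744154 per library. MLST8 was 58.0, 57.0 and 60.8 CPM (read counts scaled to library size, with TMM factors) in WT replicates 1, 2 and 3, and 25.6, 38.9 and 25.7 CPM in MLST8-KO replicates, a log2 fold change of -0.96 (Benjamini-Hochberg adjusted p = 0.00339 by the quasi-likelihood test of edgeR), so the level was 0.513 times that of WT. The 7 squamous markers (TP63, SOX2, KRT5, KRT6A, KRT14, DSG3 and PKP1) were all present. Their summed level was 18280, 14620 and 12400 CPM in WT replicates 1, 2 and 3, and 20810 to 23160 CPM in MLST8-KO libraries. All 7 were higher in MLST8-KO cells (adjusted p under 0.05 in the same test), as were 16.3% of all genes tested. The 3 listed of 4 lung adenocarcinoma markers summed to 1.80 to 4.04 CPM in WT and 8.90 to 10.7 CPM in MLST8-KO libraries, nearly all from NKX2-1 (24 to 59 and 138 to 166 counts), with NAPSA and SFTPB at 0 to 3 counts. Of 8 macrophage markers 6 were listed, and these summed to 2.89 to 3.39 CPM in WT and 2.50 to 2.72 CPM in MLST8-KO libraries, with PTPRC at 0 to 1 counts, and 4 listed of 6 melanocyte markers summed to 1.03 to 1.66 CPM and 1.55 to 2.11 CPM, with MLANA at 0 to 3 counts. MLST8-KO replicate 1 stood apart, with 248 CPM of 8 liver transcripts against 0.793 to 6.70 CPM in the other libraries. Counts of genes that changed are therefore also given without it, and the part these markers play in the results was not tested. In bulk RNA, fewer cells of a type and less RNA per cell cannot be told apart.

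In MLST8-KO cells, 8 of the 41 genes rose, 3 fell and 30 did not pass the test (edgeR's quasi-likelihood test, adjusted p under 0.05 over all 12951 genes tested). Those that rose were CTSA, CTSB, TPP1, SGSH, LAMP1, MCOLN1, GPNMB and ATP6V0D1, and those that fell were MAP1LC3B, GABARAPL1 and ATP6V1B2. The share that rose was 19.5%, against 16.3% of all genes tested, and the share that fell was 7.32%, against 15.7%. In either direction 26.8% were called, against 32.0% of all genes tested, so as a group the 41 genes were not called more often than the rest of the transcriptome. The largest change was 0.81 on the log2 scale, so none of the 41 reached a 2-fold change, which 4.32% of all genes tested did.

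The median log2 fold change was 0.03 over the 41 genes and 0.0045 over all genes tested. In 11 genes every MLST8-KO sample was above every WT sample (24.8% of all genes tested were), in 6 every one was below (24.2%), and in 24 the groups overlapped. An unadjusted p under 0.05 was found for 15 of the 41 and for 44.9% of all genes tested. Without MLST8-KO replicate 1, and likewise without WT replicate 2, 5 of the 41 genes rose and 1 fell. The whole table lost calls too, from 2116 rises and 2030 falls to 979 and 850 without MLST8-KO replicate 1. Without WT replicate 2 it held 971 and 1044. With all libraries and TMM scaling, 51.0% of the calls over all genes were rises. The share was 62.0% with upper quartile scaling and 71.0% with limma on log2(TPM + 1). With either of these, 11 of the 41 rose and 1 fell. Over all genes, 2546 rose and 1559 fell with upper quartile scaling, and 2782 rose and 1134 fell with limma on log2(TPM + 1).

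**Figure D1:**
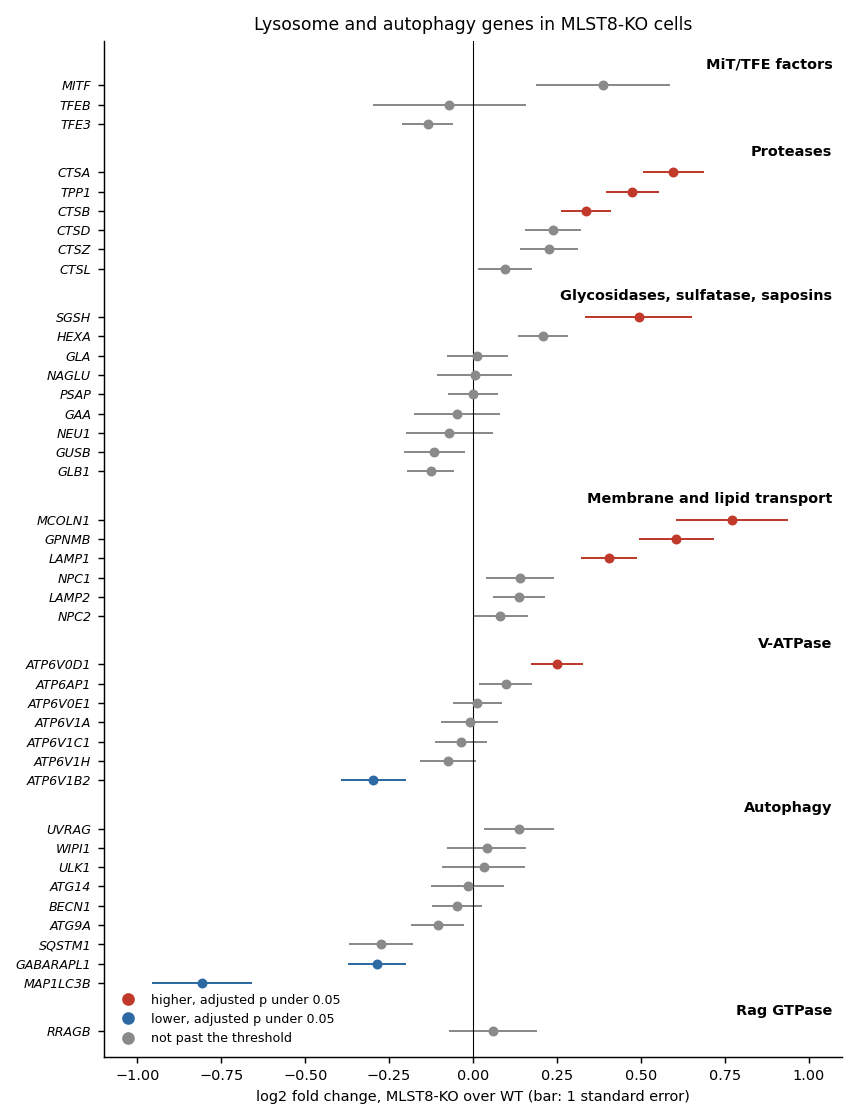
Log2 fold change of each of the 41 genes in MLST8-KO over WT cells (x axis), grouped by role, with bars of 1 standard error from edgeR's fit over all genes tested; red marks the 8 genes that rose, blue the 3 that fell and grey the 30 that did not pass the test. Proteases and membrane proteins lie at or above 0, and the lowest value is that of MAP1LC3B at -0.81.

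Among the 21 lysosomal enzymes, saposins and lysosomal membrane or lipid transport proteins, 7 rose (33.3%, against 16.3% of all genes tested) and 0 fell (against 15.7%), with a median log2 fold change of 0.14. In 10 of them every MLST8-KO sample was above every WT sample (24.8% of all genes tested) and in 1 below (24.2%). Among the 16 V-ATPase subunits and autophagy genes, 1 rose (6.25%, against 16.3%) and 3 fell (18.8%, against 15.7%), with a median of -0.03, so the share that fell was near that of all genes. The difference between these roles was not tested. The median of the 9 autophagy genes turned from -0.05 to 0.0063 with upper quartile scaling, which left 1 of them lower, MAP1LC3B.

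The 3 factors themselves did not pass the test. TFEB, which gives the pathway its name, was 4.91, 2.82 and 4.33 CPM in WT and 3.81, 3.40 and 4.29 CPM in MLST8-KO samples. The groups overlapped, at a log2 fold change of -0.07 ± 0.23 (SE; adjusted p = 0.827, edgeR's quasi-likelihood test). At 41 to 74 counts per library, TFEB had the largest SE of the 41 genes.

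TFE3, the close relative of TFEB, was 110 to 118 CPM in WT and 101 to 107 CPM in MLST8-KO samples, below in every one, with a log2 fold change of -0.14 (adjusted p = 0.186, edgeR). MITF, the melanocyte and osteoclast member of the family, went from 3.68 ± 0.750 to 4.81 ± 0.575 CPM (SD, n = 3), with overlapping groups and an adjusted p of 0.160 in the same test. Per length of transcript, TFE3 was the most abundant factor in WT cells at 61.4 TPM (scaled by transcript length and depth, as deposited), against 3.44 TPM for TFEB and 1.46 TPM for MITF. TFEC, the fourth member of the family, had 0 to 3 counts in WT and 6 to 8 counts in MLST8-KO libraries.

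In WT cells the 41 genes spanned from 1.46 TPM for MITF to 1586 ± 137 TPM (SD, n = 3) for SQSTM1, the autophagy receptor p62. GPNMB, a glycoprotein of lysosomes and melanosomes, was next at 1274 TPM, followed by CTSD at 968 TPM, the cholesterol carrier NPC2 at 540 TPM, PSAP at 504 TPM and ATP6V0E1 at 488 TPM. The WT ranges of SQSTM1 (1445 to 1719 TPM) and GPNMB (1072 to 1511 TPM) overlapped, and so did those of NPC2, PSAP and ATP6V0E1. SGSH at 5.51 TPM and MCOLN1 at 5.15 TPM, both of which rose in MLST8-KO cells, were near the low end of the order, and their WT ranges overlapped.

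**Figure D2:**
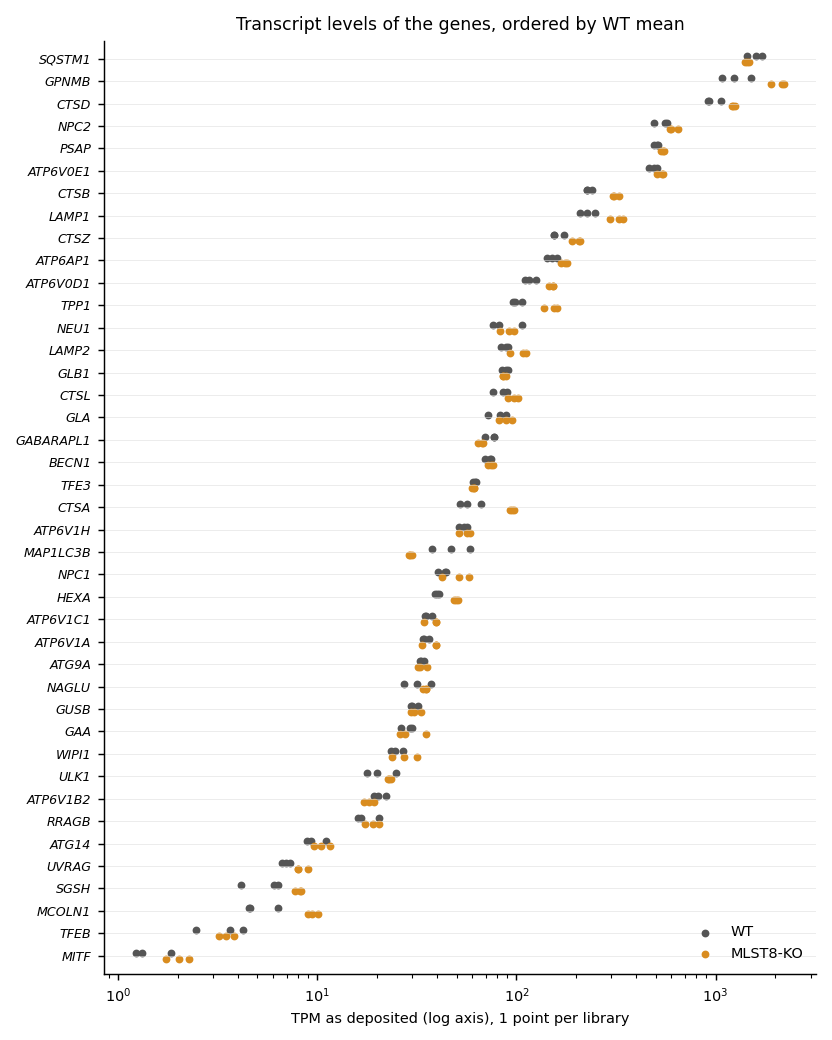
Transcript level of the 41 genes in TPM as deposited (log axis), with 1 point per library, grey for WT and orange for MLST8-KO, ordered by the WT mean. SQSTM1 and GPNMB lie highest, TFEB and MITF lowest, and the points of CTSA and MAP1LC3B separate by group.

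Of 6 lysosomal proteases, 3 rose (16.3% of all genes tested did), 5 were above every WT sample (24.8% of all genes tested) and 0 fell (15.7%), with a median log2 fold change of 0.29. CTSA (chr20:45890144-45898820, GRCh38), the carboxypeptidase that also protects lysosomal galactosidase and neuraminidase, was 107, 90.1 and 87.0 CPM in WT and 146, 140.0 and 144 CPM in MLST8-KO samples. The groups were well apart, and the log2 fold change was 0.60 ± 0.09 (SE; adjusted p = 0.00339, edgeR's quasi-likelihood test). Its exons overlap those of PLTP and NEURL2 on the opposite strand, and PLTP had 79 to 159 counts where CTSA had 1206 to 2267.

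TPP1 (chr11:6612763-6619485), the tripeptidyl peptidase lost in a childhood ceroid lipofuscinosis, was 201, 179 and 191 CPM in WT and 270, 274 and 250 CPM in MLST8-KO samples, with no overlap. Its log2 fold change was 0.47 ± 0.08 (SE; adjusted p = 0.00382, edgeR). CTSB, a cysteine cathepsin, rose from 488, 454 and 478 CPM to 622, 572 and 598 CPM, again with no overlap, a log2 fold change of 0.34 (adjusted p = 0.00944, edgeR). Without WT replicate 2 or without MLST8-KO replicate 1, CTSB no longer passed.

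CTSD, the main aspartic protease of the lysosome, was 1165, 1009 and 1035 CPM in WT and 1247, 1214 and 1325 CPM in MLST8-KO samples. Every MLST8-KO sample was above every WT sample, and the log2 fold change of 0.24 had an adjusted p of 0.0501 (edgeR), just above the threshold of 0.05, so it was not called. CTSZ, a carboxypeptidase of the papain family, was 121 ± 7.14 and 142 ± 10.7 CPM (SD, n = 3), also without overlap (log2 fold change 0.23, adjusted p = 0.0661, edgeR). CTSL, another cysteine cathepsin, was 68.2 ± 4.21 and 73.0 ± 2.32 CPM, with overlapping groups (adjusted p = 0.375, edgeR).

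Enzymes that break down glycans and glycolipids had a median log2 fold change of 0.0003. Of 9 genes in this role, 1 rose (11.1%, against 16.3% of all genes tested) and 0 fell (against 15.7%). SGSH (chr17:80206716-80220923), the sulfamidase of heparan sulfate breakdown, was 10.9, 10.3 and 7.43 CPM in WT and 13.9, 12.2 and 14.3 CPM in MLST8-KO samples. The groups did not overlap, and the log2 fold change was 0.49 ± 0.16 (SE; adjusted p = 0.0377, edgeR's quasi-likelihood test). The call was lost when any library other than WT replicate 1 was left out, and its exons overlap those of SLC26A11, which had 111 to 145 counts per library, and CARD14.

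HEXA, the alpha subunit of hexosaminidase, was 57.8 ± 0.684 and 66.7 ± 1.75 CPM (SD, n = 3), above in every MLST8-KO sample but with an adjusted p of 0.0545 (log2 fold change 0.21, edgeR). GLB1, the lysosomal beta-galactosidase, lay the other way, at 121 ± 1.82 and 111 ± 1.64 CPM, below in every sample, with a log2 fold change of -0.13 (adjusted p = 0.191, edgeR). GAA, GLA, GUSB, NAGLU, NEU1 and PSAP, which cleave glycogen, alpha-galactosides, glucuronides, heparan sulfate and sialic acid or supply the saposins, all had overlapping groups. Their log2 fold changes ran from -0.12 for GUSB to 0.01 for GLA, with adjusted p-values of 0.353 and above (edgeR). GAA, whose promoter holds 2 E-boxes, was 50.2, 55.1 and 58.9 CPM in WT and 49.1, 45.4 and 64.4 CPM in MLST8-KO samples. MLST8-KO replicates 1 and 2 lay below the WT range and replicate 3 above it.

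Membrane proteins and lipid carriers of the lysosome included 3 genes that rose among 6 (16.3% of all genes tested did) and 0 that fell (15.7%). GPNMB (chr7:23235967-23275108) was 2165, 1768 and 1590 CPM in WT and 2950, 2820 and 2631 CPM in MLST8-KO samples. The lowest MLST8-KO sample was above the highest WT sample, with a log2 fold change of 0.61 ± 0.11 (SE; adjusted p = 0.00524, edgeR's quasi-likelihood test). LAMP1 (chr13:113297241-113323672), the abundant glycoprotein that lines the lysosomal membrane and holds 6 E-boxes in its promoter window, rose from 328, 298 and 283 CPM to 426, 398 and 379 CPM. These groups did not overlap either, and the log2 fold change was 0.40 ± 0.08 (SE; adjusted p = 0.00751, edgeR).

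MCOLN1 (chr19:7522626-7534009), the calcium channel TRPML1 through which the lysosome acts on TFEB, had the largest rise of the 41 genes, from 6.83, 4.96 and 5.05 CPM to 10.2, 8.83 and 9.80 CPM. Its log2 fold change was 0.77 ± 0.17 (SE; adjusted p = 0.00872, edgeR), a 1.71-fold change. Its exons overlap those of PNPLA6 on the same strand, which had 731 to 847 counts per library, so reads in the overlap could be split between them. LAMP2, NPC1 and NPC2, the second lysosomal membrane glycoprotein and the pair that exports cholesterol, had overlapping groups, with log2 fold changes of 0.14, 0.14 and 0.08 and adjusted p-values of 0.195, 0.307 and 0.468 (edgeR).

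**Figure D3:**
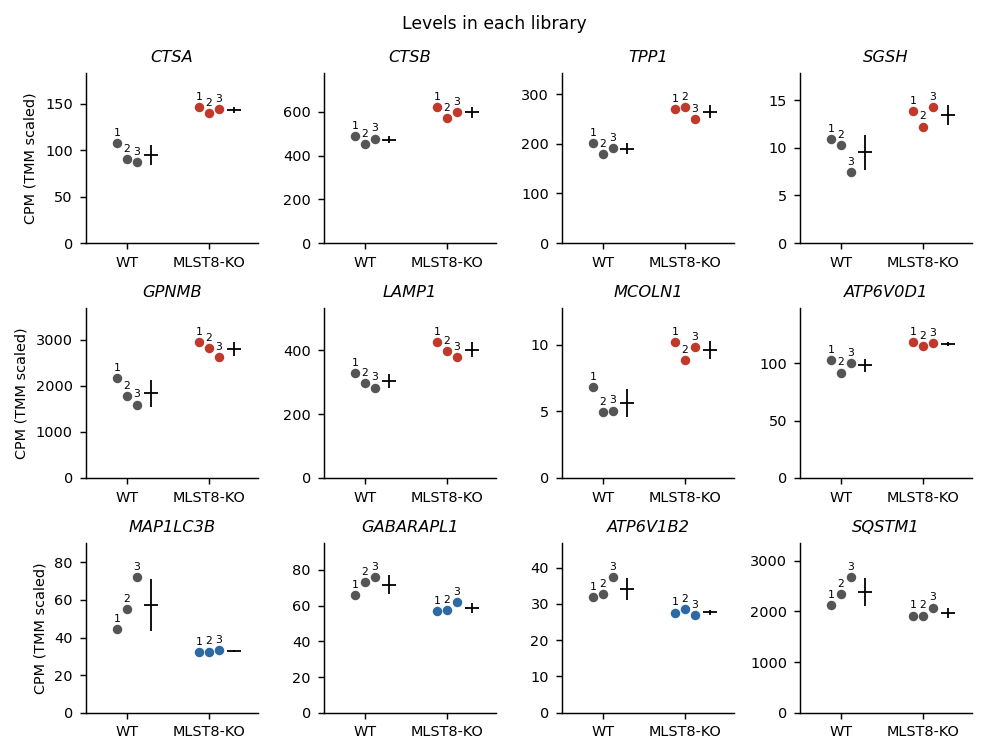
Level in CPM (TMM scaled, y axis from 0) in each library of the 11 genes that changed and of SQSTM1; numbers are replicate numbers, crosses give the mean and SD of 3 samples, and red and blue mark MLST8-KO samples of genes that rose and fell. In each of the 11 genes the WT library closest to the MLST8-KO samples is replicate 1.

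Among 7 V-ATPase subunits, ATP6V0D1 rose (14.3%, against 16.3% of all genes tested), ATP6V1B2 fell (14.3%, against 15.7%) and 5 did not pass. Both shares were near those of all genes. ATP6V0D1 (chr16:67438014-67481237), a subunit of the membrane sector, was 103, 91.9 and 100.2 CPM in WT and 119, 115 and 117 CPM in MLST8-KO samples, with no overlap, a log2 fold change of 0.25 ± 0.08 (SE; adjusted p = 0.0330, edgeR's quasi-likelihood test). ATP6V1B2, a subunit of the catalytic sector in the cytosol, was 31.8, 32.7 and 37.4 CPM in WT and 27.6, 28.5 and 26.9 CPM in MLST8-KO samples. It fell by 0.30 on the log2 scale (adjusted p = 0.0380, edgeR).

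Neither call was firm. ATP6V0D1 no longer passed when WT replicate 2 or any one of the MLST8-KO samples was left out. ATP6V1B2 no longer passed in 5 of the 6 fits without 1 library, nor with upper quartile scaling, DESeq2 or limma on TPM. The assembly factor ATP6AP1 and the subunits ATP6V0E1, ATP6V1A, ATP6V1C1 and ATP6V1H all had overlapping groups, with log2 fold changes between -0.07 and 0.10.

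Autophagy genes held the largest change among the 41. MAP1LC3B (chr16:87383995-87404779), which encodes LC3B, the ATG8 protein that is lipidated on autophagosome membranes, was 44.5, 55.2 and 72.2 CPM in WT and 32.3, 32.5 and 33.2 CPM in MLST8-KO samples. The WT samples spread widely and the MLST8-KO samples hardly at all, yet the lowest WT sample was above the highest MLST8-KO sample. The log2 fold change was -0.81 ± 0.15 (SE; adjusted p = 0.00524, edgeR's quasi-likelihood test), or 0.571-fold. The near-identical copy MAP1LC3B2 had 0 to 5 counts per library, and FBXO31, which overlaps MAP1LC3B on the opposite strand, had 256 to 325.

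GABARAPL1 (chr12:10212458-10223130), another ATG8 protein, was 65.9, 73.1 and 76.0 CPM in WT and 56.9, 57.5 and 62.0 CPM in MLST8-KO samples, with no overlap. It fell by 0.29 on the log2 scale (adjusted p = 0.0287, edgeR), and the call was lost without WT replicate 2 or 3, without MLST8-KO replicate 1 or 2, and with upper quartile scaling or limma on TPM. SQSTM1, the receptor that brings ubiquitinated cargo to LC3, was 2123, 2338 and 2680 CPM in WT and 1915, 1917 and 2074 CPM in MLST8-KO samples. Each MLST8-KO sample was below each WT sample, with a log2 fold change of -0.27 and an adjusted p of 0.0501 (edgeR).

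Genes that start autophagy and shape its membrane did not pass the test and had overlapping groups. ULK1, the initiating kinase, was 58.5 ± 11.4 and 59.7 ± 1.98 CPM (SD, n = 3), and BECN1, the core of the lipid kinase complex, was 76.8 ± 1.77 and 74.3 ± 2.16 CPM. The other members of this complex, ATG14 and UVRAG, the lipid scramblase ATG9A and the lipid-binding WIPI1 had log2 fold changes from -0.11 to 0.14, and adjusted p-values of 0.324 and above (edgeR). RRAGB, a Rag GTPase that recruits mTORC1 to the lysosome and holds 3 E-boxes in its promoter window, was 18.7 ± 1.76 and 19.5 ± 2.87 CPM (adjusted p = 0.750, edgeR).

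In all 11 genes that changed, the WT library closest to the MLST8-KO samples was replicate 1, the highest WT sample of each gene that rose and the lowest of each that fell. The same library was closest for 76.0% of the 4146 genes called in the whole table. Its summed squamous marker level, 18280 CPM, was also the closest to that of the MLST8-KO samples. Leaving this library out gave 10 rises and 4 falls among the 41 genes. Over all genes it gave 2692 rises and 2651 falls, against 2116 and 2030 with all libraries.

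CTSA, TPP1, GPNMB, LAMP1, MCOLN1 and MAP1LC3B passed the threshold in each of the 14 alternative analyses, which changed the filter, the scaling, the test or the libraries used. The other 5 genes lost their call in at least 1 of them, and no gene that changed turned its direction.

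Genes of the same compartments outside the 41 were read from the same fit, in 6 further lists, also chosen with earlier results of these data known. Of 39 other lysosomal hydrolases tested, 14 rose (35.9%, against 16.3% of all genes tested) and 1 fell (2.56%, against 15.7%), with a median log2 fold change of 0.20. The cysteine cathepsin CTSO had a log2 fold change of 1.29 ± 0.20 (SE), larger than that of any of the 41 genes, but at a low level. It was 2.79, 1.86 and 2.45 CPM in WT and 6.26, 5.37 and 5.83 CPM in MLST8-KO samples. The acid phosphatase ACP2 had a log2 fold change of 0.69 and the hyaluronidase HYAL1 of 0.42. CTSO, ACP2 and HYAL1 were each without overlap and past the threshold in all 14 alternatives. LGMN, the asparaginyl endopeptidase, was the hydrolase that fell, by 0.29 on the log2 scale, and it passed in 6 of the 14 alternatives. Without MLST8-KO replicate 1 or WT replicate 2, 7 hydrolases rose and 0 fell, and without WT replicate 1, 17 rose and 2 fell. In the same order, the whole table held 979, 971 and 2692 rises, against 2116 with all libraries. Its falls were 850, 1044 and 2651, against 2030.

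Of 24 other lysosomal membrane proteins, 4 rose (16.7%, against 16.3% of all genes tested) and 2 fell (8.33%, against 15.7%), so the share that rose was that of all genes. These counts were 1 and 1 without MLST8-KO replicate 1, a fit with 979 rises and 850 falls over all genes. CLN3, TPCN2, CLCN7 and SLC36A1 rose, with log2 fold changes of 0.46, 0.55, 0.32 and 0.26; the first is the Batten disease protein and the others are a cation channel, a chloride-proton exchanger and an amino acid transporter. SLC17A5, the sialic acid exporter, was 23.2, 31.2 and 41.7 CPM in WT and 15.7, 18.4 and 16.6 CPM in MLST8-KO samples. It fell by 0.92 on the log2 scale (adjusted p = 0.00666, edgeR), and LAPTM4A by 0.32. SLC17A5 and CLN3 passed in all 14 alternatives, LAPTM4A in 13, CLCN7 in 12, TPCN2 in 11 and SLC36A1 in 10.

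Of 15 other V-ATPase subunits, 1 rose (6.67%, against 16.3% of all genes tested) and 3 fell, against 15.7% of all genes tested. These became 1 and 2 without MLST8-KO replicate 1, a fit with 979 rises and 850 falls over all genes. ATP6V0A1, the membrane subunit that helps place the pump, rose with a log2 fold change of 0.67, while ATP6V1C2, ATP6V1D and ATP6V0B fell by 0.63, 0.46 and 0.37. ATP6V0A1 and ATP6V1C2 passed in all 14 alternatives, ATP6V1D in 11 and ATP6V0B in 6. Rises and falls were both found, as among the 7 subunits described above and among all genes tested.

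Of 37 other autophagy genes, 13 fell (35.1%, against 15.7% of all genes tested) and 5 rose (13.5%, against 16.3%), with a median log2 fold change of -0.16. Without MLST8-KO replicate 1, 4 fell and 0 rose, without MLST8-KO replicate 2, 5 and 1, and without WT replicate 2, 6 and 1. Over all genes, falls and rises in these fits were 850 and 979, 1091 and 1136, and 1044 and 971. With all libraries they were 2030 and 2116. Upper quartile scaling gave 10 falls and 6 rises, DESeq2 13 and 2, and limma on either log2 TPM scale 6 and 5, with a median of -0.07. Over all genes, falls and rises were 1559 and 2546 with upper quartile scaling and 1995 and 1849 with DESeq2. With limma on log2(TPM + 1) they were 1134 and 2782. ATG101, a subunit of the ULK1 complex, was 86.2, 105 and 134 CPM in WT and 61.6, 57.9 and 65.6 CPM in MLST8-KO samples. It fell by 0.81 on the log2 scale (adjusted p = 0.00412, edgeR), the same size as MAP1LC3B. WDR45B, a WIPI family protein, TOLLIP, a ubiquitin receptor, and ATG4B, the protease that processes ATG8 proteins, fell by 0.57, 0.45 and 0.53. The lipid transfer proteins ATG2B and ATG2A rose, with log2 fold changes of 0.43 and 0.33, as did the receptor OPTN at 0.30 and the autophagosomal SNARE STX17 at 0.29. ATG2B passed in 13 of the 14 alternatives, OPTN in 11, ATG2A in 8 and STX17 in 7. ATG101, WDR45B and TOLLIP passed in all 14 and ATG4B in 13.

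Since both members that fell in this role are ATG8 proteins, the rest of that family was read after these values were seen. GABARAPL2 was 75.6 to 80.8 CPM in WT and 58.4 to 67.9 CPM in MLST8-KO samples and fell by 0.29 on the log2 scale (adjusted p = 0.0301, edgeR). GABARAP, at 117 ± 9.68 and 135 ± 8.32 CPM (SD, n = 3), was above in every MLST8-KO sample with an adjusted p of 0.0978 (edgeR), and MAP1LC3A had a log2 fold change of 0.01 (adjusted p = 0.964, edgeR). MAP1LC3C had 0 to 1 counts per library.

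Of 12 genes of the Rag, Ragulator and FLCN machinery, which places mTORC1 on the lysosome and controls its access to TFEB, 4 fell (33.3%, against 15.7% of all genes tested) and 1 rose (8.33%, against 16.3%). Without MLST8-KO replicate 1, 4 fell and 0 rose, and without WT replicate 1, 7 fell and 1 rose. Over all genes, the first fit gave 850 falls and 979 rises and the second 2651 and 2692. RRAGA, the close relative of RRAGB, was 63.5, 70.2 and 84.8 CPM in WT and 53.2, 45.8 and 52.0 CPM in MLST8-KO samples, and fell by 0.53 on the log2 scale (adjusted p = 0.00840, edgeR). The Ragulator subunits LAMTOR5 and LAMTOR3 fell by 0.64 and 0.73 and the folliculin partner FNIP1 by 0.59, while the arginine sensor SLC38A9 rose with a log2 fold change of 0.31. RRAGA, LAMTOR5 and FNIP1 passed in all 14 alternatives, LAMTOR3 in 12 and SLC38A9 in 8.

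**Figure D4:**
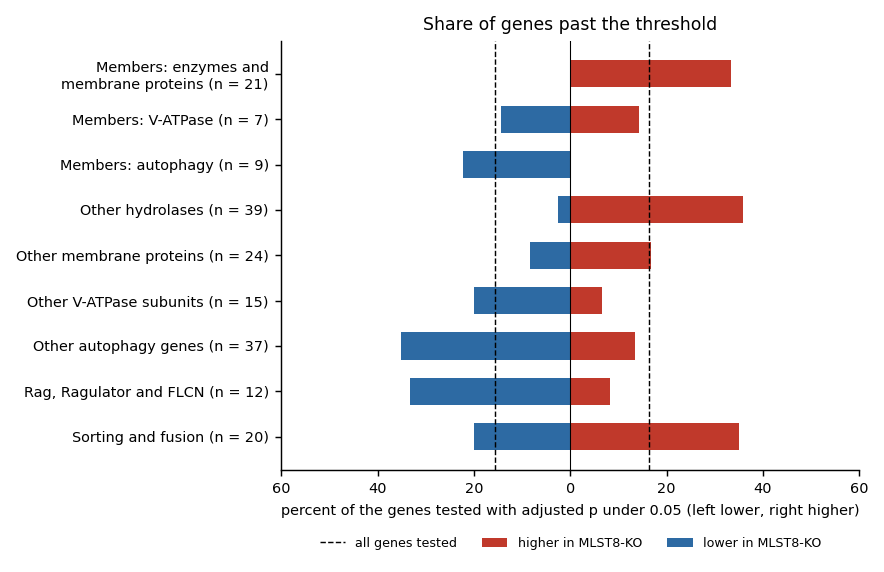
Percent of the genes tested with an adjusted p under 0.05 (x axis, lower to the left and higher to the right) in 3 groups of the 41 genes and in the 6 further lists; dashed lines mark the shares of all genes tested, 15.7% lower and 16.3% higher. Hydrolases and membrane proteins of the 41 extend to the right, and autophagy genes and the Rag, Ragulator and FLCN list extend to the left.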

How the data were processed

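Poly(A) RNA of 3 WT and 3 MLST8-KO samples of HCC2814 cells was sequenced. Per the labels and the study's methods, the authors filtered the reads, aligned them with HISAT to GRCh38.p12, assigned them to genes with Bowtie2 and deposited estimated counts, TPM and FPKM per gene, with no versions or strand setting given in the sources used here. The deposited estimated counts are not normalized. The deposited TPM and FPKM adjust for depth and gene length, and the FPKM were not used. A separate table of the authors' own comparisons (their log2 ratios with p and q values) was not used either.

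Counts were rounded (12.4% of values were not whole), filtered with filterByExpr by group, scaled with TMM and tested with edgeR 4.0.16 in R 4.3.3 (glmQLFit and glmQLFTest, no replicate block, Benjamini-Hochberg over 12951 genes, threshold 0.05). The SE was taken as the size of the log2 fold change over the square root of F. A count of 0 allows up to 3 counts, 0.185 to 0.216 CPM per library, for counting error only. Replicates differed by more than sampling noise (chi-square per gene 6.83 to 26.7). The highest value was that of WT replicates 1 and 3, and the other pairs within a group had 6.83 to 10.3. The fit was tested on simulated data.

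Alternatives were leaving out the filter, requiring 10 counts in each sample, DESeq2 size factors or upper quartile scaling, DESeq2 1.42.0, limma 3.58.1 on log2(TPM + 1) and log2(TPM + 0.1), a replicate block and leaving out each library. The further lists without MLST8-KO replicate 1 and under other scalings, and MLST8 under each alternative, were chosen after seeing the data. The 41 genes and all lists were chosen with earlier results of these data known. Besides the 41 genes, MLST8 and the markers, up to 4 genes per further list and direction are named, those past the threshold with the smallest adjusted p and 50 or more counts on average. Some genes that this rule names are not reported here. Genes that overlap or resemble the 41, other ATG8 genes and TFEC were named after their values were seen. Symbols that had become dates (25) were restored by Entrez identifier, and coordinates are from GENCODE 29. Figures were drawn with matplotlib 3.10.9.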

Additional observations from a re-analysis of the deposited data

How the results depend on the processing

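Of the 11 genes that changed, 6 passed the threshold in all 14 alternatives, and over all 154 combinations of gene and alternative 127 kept the call, 27 lost it and 0 turned direction. Upper quartile scaling left 1 of the 41 genes lower (11 higher) and moved their median log2 fold change to 0.088, against 0.06 for all genes. Over all genes it gave 2546 higher and 1559 lower. With limma on log2(TPM + 1) or log2(TPM + 0.1), 1 was lower and 11 higher, the median was 0.12 and 0.13 (0.09 and 0.10 for all genes), and 1134 and 1132 of all genes were lower, against 2030. On the same 2 scales, 2782 and 2764 of all genes were higher, against 2116. DESeq2 called 9 of the 41 genes higher and 3 lower, and 1849 and 1995 of all genes. Leaving out 1 library gave 5 to 10 of the 41 genes higher and 1 to 4 lower, a median of 0.0148 to 0.0737, and 971 to 2692 genes higher and 850 to 2651 lower in the whole table. The lowest counts of higher genes came without WT replicate 2 (971 higher, 1044 lower) and without MLST8-KO replicate 1 (979 and 850), and the highest without WT replicate 1 (2692 and 2651). The cause was not tested.

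Among the 30 genes not called, 17 changed sign, and CTSD, CTSZ, HEXA and SQSTM1 passed in some alternatives. PSAP turned to -0.0041 without the filter, -0.0044 with DESeq2 size factors and -0.0054 with DESeq2. With upper quartile scaling the log2 fold change became 0.0074 for GAA, 0.045 for ATP6V1A, 0.018 for ATP6V1C1, 0.038 for ATG14 and 0.0063 for BECN1. With limma on log2(TPM + 1), and on log2(TPM + 0.1) after it, TFEB had 0.039 and 0.055, GAA 0.042 and 0.043, GUSB 0.023 and 0.023, NEU1 0.053 and 0.054, ATP6V1A 0.096 and 0.098, ATP6V1C1 0.069 and 0.071, ATP6V1H 0.040 and 0.041, ATG9A 0.0007 and 0.0007, ATG14 0.10 and 0.11, and BECN1 0.035 and 0.035. Without 1 library, the range was -0.28 to 0.10 for TFEB, -0.032 to 0.030 for PSAP, -0.049 to 0.12 for WIPI1, -0.075 to 0.20 for ULK1, -0.069 to 0.074 for ATG14, -0.027 to 0.18 for RRAGB, -0.098 to 0.13 for NAGLU, -0.21 to 0.053 for GAA, -0.048 to 0.067 for GLA, -0.18 to 0.11 for NEU1, -0.020 to 0.040 for ATP6V0E1, -0.046 to 0.042 for ATP6V1A and -0.068 to 0.0062 for ATP6V1C1.

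The deviations of same-numbered samples had a Pearson r of 0.105, 0.057 and 0.14 over 12951 genes for numbers 1, 2 and 3, against -0.117 to 0.02 for other pairs. Each sample correlated best with its own number, a hint from the data, but 1 pair was under 0.1 and the labels name nothing shared, so the numbers were not used as pairs. A replicate block gave 8 of the 41 genes higher and 4 lower, adding SQSTM1, and 2261 and 2157 genes in the whole table. TFEB, with 41 to 74 counts per library, MITF, SGSH and MCOLN1 are the genes whose precision depth limits most.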

Other observations

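The machinery that delivers hydrolases to lysosomes and fuses lysosomes with other vesicles was read as the sixth of the further lists. Of its 20 genes tested, 7 were higher in MLST8-KO cells (35.0%, against 16.3% of all genes tested) and 4 lower (against 15.7%), by edgeR's quasi-likelihood test. Without MLST8-KO replicate 1 these counts were 3 and 1, in a fit with 979 higher and 850 lower over all genes. IGF2R, the large mannose 6-phosphate receptor, was 199.6, 183 and 162 CPM in WT and 284, 316 and 248 CPM in MLST8-KO samples, a log2 fold change of 0.64 (adjusted p = 0.00401). The other receptor, M6PR, had -0.12 (adjusted p = 0.256) and NAGPA, which uncovers the mannose 6-phosphate tag, 0.34 (adjusted p = 0.0572), and neither passed; both were named after their values were seen. GNPTAB and GNPTG, subunits of the phosphotransferase that makes this tag, had log2 fold changes of 0.41 and 0.50, and CLN6, a protein of the endoplasmic reticulum linked to hydrolase transport, of 0.75. In the other direction, CLN8, VPS18 and RAB7A fell by 0.40, 0.33 and 0.26. CLN8 passed in 8 of the 14 alternatives, VPS18 in 7 and RAB7A in 6. IGF2R and CLN6 passed in all 14, GNPTG in 12 and GNPTAB in 11.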
